A study of Homo sapiens with 29 samples.

Results

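The Fanconi anaemia, homologous recombination and damage checkpoint genes described here are 39 named genes out of 58302 in a table of raw counts. The genes were listed by symbol, with earlier results of these data known. All 39 symbols matched 1 gene identifier each. They comprise 9 genes of the Fanconi core and its ubiquitin transfer (FANCA, FANCB, FANCC, FANCE, FANCF, FANCG, FANCL, FANCM, UBE2T), 3 of the FANCD2-FANCI pair and its deubiquitinase (FANCD2, FANCI, USP1), 11 of recombination, 5 of end resection and helicase action, 5 of checkpoint signalling and 6 of end joining or break sensing. Of these, 38 had enough counts to be tested. The exception was RAD54L, a motor protein of recombination, which had 0 to 13 counts per library (median 4).

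Libraries came from xenograft tumours of MDA-MB-231 cells, an established line of triple-negative breast cancer, and of a paclitaxel-resistant line derived from it. The hosts were SCID-beige mice, which have no functional T and B cells and impaired natural killer cells. The parental tumours formed 4 groups, which had vehicle (4 libraries), decitabine at 0.4 mg/kg (4), doxorubicin at 1 mg/kg (3) or the combination of the 2 drugs at these doses (4). The resistant tumours formed the same groups with 4, 3, 4 and 3 libraries. Treatment lasted 26 days, in 2 cycles of 12 days with a rest of 2 days between them. For parental tumours 250000 cells were injected and drugs began on day 6 after it. For resistant tumours 1500000 cells were injected and drugs began on day 16, so line, cell number and start day cannot be told apart. The labels name 1 resistant line, so what holds for it is known for that line only. The submitters asked whether resistance goes with methylation-linked expression changes and whether decitabine can undo them.

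Decitabine is a cytidine analogue that is built into DNA and traps DNA methyltransferases there, which leaves bulky protein adducts and lowers methylation. Doxorubicin intercalates into DNA and poisons topoisomerase II, which leaves double-strand breaks. In the Fanconi pathway, FANCM and the core complex recognise a blocked fork, FANCL with UBE2T attaches ubiquitin to FANCD2 and FANCI, and USP1 removes it again. The breaks made in this repair are resected and passed to BRCA1, PALB2 and BRCA2 for copying from the sister chromatid, while ATR with TOPBP1 and CHEK1, and ATM with CHEK2, hold the cell cycle. The Ku and DNA-PK proteins rejoin ends directly. Many of the recombination and Fanconi genes are transcribed mainly in S and G2 phase, so their level in a tumour also follows how many cells cycle.

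The libraries held 3398261 to 5382295 counts (median 4600007). Levels are given as CPM, the count scaled to a common library size, and since 1 tag near the 3′ end is read per transcript, they are not divided by length. The markers of MDA-MB-231 were present, with group means of 1791 to 2745 CPM for VIM and 552 to 882 CPM for CD44. PGR was at 0 in 7 of the 8 groups and ESR1 at 0.351 to 1.10 CPM, while ERBB2 (15.3 to 22.5 CPM) and CDH1 (51.0 to 134 CPM), also expected low, had counts. Parental vehicle 3 and resistant decitabine 2 stood apart from the other libraries on the second principal component, and results that change without them are given with and without them. Fewer tumour cells of a kind and less RNA per cell cannot be told apart in bulk tissue, and mouse cells that contribute reads cannot be separated here.

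The genes differed widely in level. XRCC5, the larger subunit of the Ku end-binding protein, was the most abundant with a mean of 361 CPM over all libraries, ahead of USP1 (208 CPM) and the resection factor RBBP8, also called CtIP (110 CPM). These 3 were the genes above 100 CPM, 25 lay between 10 and 100 CPM, and 11 lay below 10 CPM. The lowest of the tested genes were FANCB (3.95 CPM), the helicase-polymerase POLQ (3.58 CPM), the recombination factor XRCC3 (2.50 CPM) and the kinase CHEK2 (1.92 CPM), whose few counts leave wide errors. The mean of the highest group was 1.80 times that of the lowest in the median tested gene. Counts of CHEK2, PARP1 and XRCC6 could include reads of named pseudogenes, and those of FANCL, RAD50, RAD54B and RAD54L reads of a gene that overlaps their 3′ end. The parental decitabine group held the highest mean for 25 of the 39 genes and the parental combination group the lowest for 16. USP1, FANCB, POLQ, XRCC2 and BRCA2 were among the most variable by this measure, with ratios of 2.85, 3.34, 3.09, 2.73 and 2.57. The ratio was lowest for the ATR activator TOPBP1 (1.29), BARD1 (1.33) and XRCC6 (1.34).

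**Figure D1:**
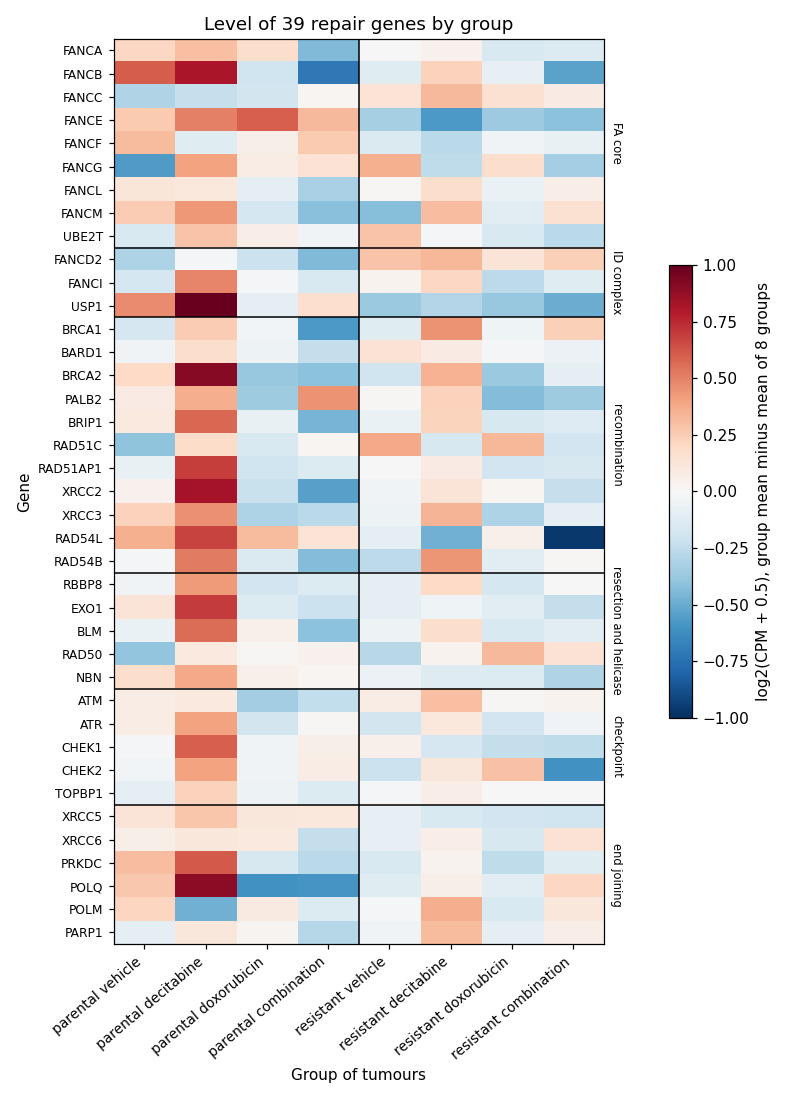
Group means of log2(CPM + 0.5) for the 39 genes (vertical axis, by role) in the 8 groups (horizontal axis), each less the mean of the 8 groups for that gene, with colours that end at 1 and -1. The parental decitabine column is red for most genes, blue for POLM, and the parental combination column is blue for many of the same genes.

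In some libraries many of the genes lay at the same end of their group. The share of all genes that did so was not counted. Resistant vehicle 3 had the lowest value of its group for 31 of the 39 genes, and resistant doxorubicin 3 the highest of its group for 29. In the parental doxorubicin group, library 1 was highest for 26 genes and library 3 lowest for 25, while library 2 was highest for 8 and lowest for 8. The summed level of 30 mitosis genes went the same way in these libraries. It was 2936 CPM in resistant vehicle 3 against 3178 to 4216 in the rest of its group, and 4151 CPM in resistant doxorubicin 3 against 2796 to 3540. In parental doxorubicin 1 it was 3900 CPM against 3027 and 3118. The part of cycling cells in these differences was not tested.

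The comparison of the lines under vehicle asked how resistant tumours differed without decitabine or doxorubicin. USP1 and 4 further genes were lower in resistant tumours, and FANCD2 and RAD51C were higher. With edgeR's quasi-likelihood test and Benjamini-Hochberg adjustment, 2 of the 38 genes were called higher and 5 lower at an adjusted p under 0.05. Among all 13495 genes tested, 20.1% were called, 8.66% higher and 11.5% lower, so the share among the repair genes was near that of all genes. Their median log2 difference was -0.13, and that of all genes was 0.02.

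USP1 (ENSG00000162607, GRCh38 chr1:62436297-62451804), the deubiquitinase of FANCD2, measured 310, 211, 320 and 228 CPM in the parental vehicle tumours and 143, 137, 136 and 172 CPM in the resistant ones. Every resistant value lay below every parental one. The fitted log2 difference was -0.86 (SE 0.15, adjusted p = 9.174e-05), or 0.551 of the parental level. FANCE (ENSG00000112039, chr6:35452356-35467103), the core subunit that contacts FANCD2, measured 33.6, 47.6, 38.3 and 33.8 CPM against 24.8, 27.6, 21.5 and 26.2 CPM, again without overlap (log2 -0.62, SE 0.14, adjusted p = 0.001588). FANCD2 (ENSG00000144554, chr3:10026414-10101930), from which USP1 removes ubiquitin, went the other way. Its values were 26.4, 19.6, 22.9 and 15.5 CPM in parental and 33.3, 38.3, 25.3 and 30.5 CPM in resistant tumours, with 1 resistant value inside the parental range (log2 0.59, SE 0.17, adjusted p = 0.01379). A pseudogene copy of FANCD2 named in the annotation (FANCD2P2) makes its count uncertain.

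RAD51C, a subunit of 2 complexes in recombination, measured 24.8, 21.3, 12.9 and 19.2 CPM in parental and 37.1, 26.6, 29.6 and 40.7 CPM in resistant vehicle tumours (log2 0.77, SE 0.23, adjusted p = 0.01718). The groups did not overlap, but the call was lost without parental vehicle 3 (adjusted p = 0.07335) or resistant vehicle 4 (adjusted p = 0.06531). The FANCD2 call was likewise lost without parental vehicle 4 (adjusted p = 0.05117) or resistant vehicle 2 (adjusted p = 0.05756). FANCM, the fork translocase, was lower by a log2 of -0.73 (SE 0.24, adjusted p = 0.03027), FANCF, the adaptor of the core, by -0.48 (SE 0.17, adjusted p = 0.0479) and PRKDC, the catalytic subunit of DNA-PK, by -0.48 (SE 0.17, adjusted p = 0.04642). The FANCM call was lost without parental vehicle 1, resistant vehicle 2 or resistant vehicle 3 (adjusted p up to 0.1581). The FANCF call was lost with 6 of 8 libraries left out in turn and under all 8 other settings (adjusted p up to 0.2488), and the PRKDC call with 7 libraries and under 5 settings (adjusted p up to 0.1602). The number of genes called was 4 without parental vehicle 3 and 3 without resistant vehicle 2. The calls of USP1 and FANCE held without any 1 library and under the 8 other settings tried.

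Averaged over the 4 treatments, the resistant line differed in 11 genes, of which 4 were higher and 7 lower, while 46% of all tested genes were called, 22.6% higher and 23.4% lower. FANCE was at 42.4 ± 5.69 CPM in the 15 parental tumours and 23.8 ± 3.28 CPM in the 14 resistant ones (SD), and each resistant library was below each parental one (log2 -0.85, SE 0.07, adjusted p = 1.08e-10). USP1 was lower by a log2 of -0.78 (SE 0.08, adjusted p = 2.57e-09), with 266 ± 91.4 CPM in parental and 146 ± 18.3 CPM in resistant tumours. The parental values spread over the treatments, from 158 CPM with doxorubicin to 456 CPM with decitabine. FANCD2 (0.51, SE 0.09, adjusted p = 3.249e-05) and FANCC, another core subunit (0.36, SE 0.10, adjusted p = 0.003154), were higher in the resistant line, and so were BRCA1 (0.28, adjusted p = 0.04906) and the break-sensing kinase ATM (0.22, adjusted p = 0.03981). The Ku subunit XRCC5 (-0.31, SE 0.05, adjusted p = 8.62e-06), the MRE11 partner NBN (-0.31, SE 0.06, adjusted p = 8.086e-05), CHEK1 (-0.29, SE 0.08, adjusted p = 0.002933), FANCF (-0.26, adjusted p = 0.02287) and PRKDC (-0.25, adjusted p = 0.02279) were lower. The calls of FANCC, FANCD2, FANCE, USP1, NBN, CHEK1 and XRCC5 held under each setting and each library left out. The BRCA1 call was lost with 16 of the 29 libraries left out in turn, the ATM call with 8, the FANCF call with 7 and the PRKDC call with 3. In the same order, these calls were lost under 2, 3, 3 and 1 of 7 other settings. For CHEK1, BRCA1, ATM and PRKDC the average did not stand for each treatment. CHEK1 was at 50.9 CPM in parental and 53.1 CPM in resistant tumours under vehicle, and at 77.7 and 46.7 CPM under decitabine. BRCA1 was at 48.8 and 50.5 CPM under vehicle, 53.8 and 54.1 CPM under doxorubicin, and 36.6 and 66.0 CPM under both drugs. ATM was at 53.4 and 53.1 CPM under vehicle and at 39.5 and 51.9 CPM under doxorubicin. PRKDC was at 94.9 and 68.0 CPM under vehicle and at 118 and 78.0 CPM under decitabine. With doxorubicin it was at 68.0 and 64.0 CPM, and with both drugs at 63.3 and 70.3 CPM, the other direction.

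**Figure D2:**
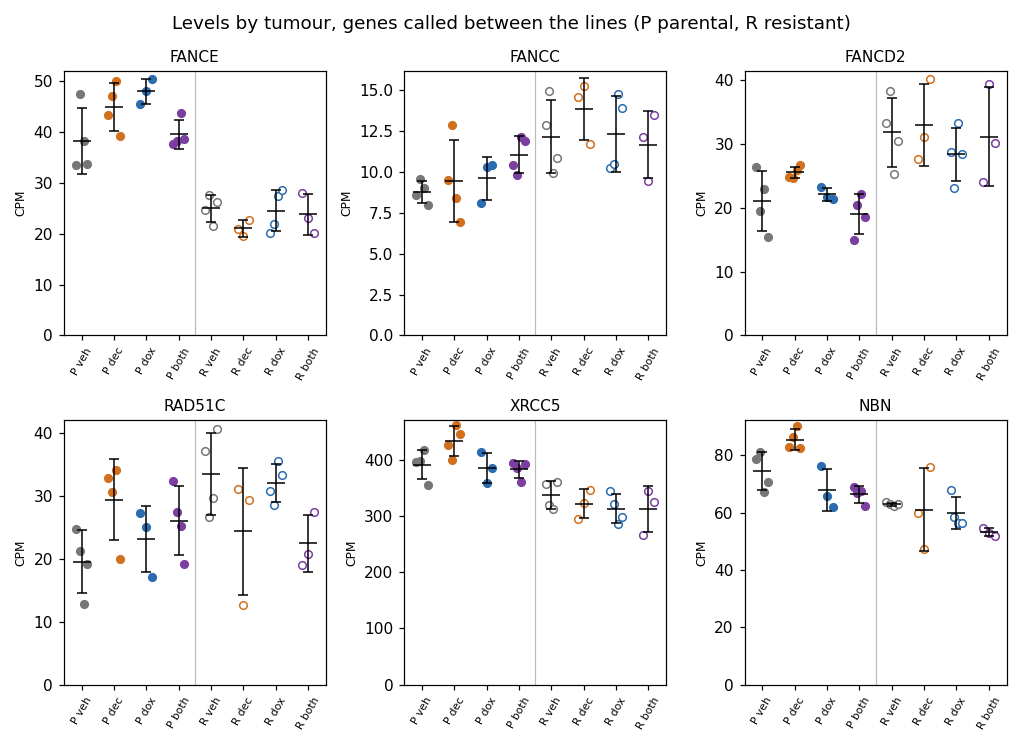
CPM per tumour (vertical axis) in the 8 groups (horizontal axis; veh vehicle, dec decitabine, dox doxorubicin, both the combination) for 6 genes called between the lines, with parental libraries as filled and resistant libraries as open circles and bars for mean and SD. FANCE separates the lines without overlap, with means of 38.3 to 48.1 CPM in parental and 21.1 to 25.0 CPM in resistant groups.

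Decitabine alone was compared with vehicle in each line. In parental tumours, RAD51AP1, RBBP8 and CHEK1 rose and POLM fell, and 15 genes had higher and 2 lower values at an unadjusted p under 0.05. Counts at an unadjusted p, here and below, are given without the share of all genes at that threshold. They are a description only. The 4 calls stand beside 1.67% called among all tested genes (0.793% higher and 0.874% lower). In all, 35 of 38 fitted differences were above 0, with a median log2 of 0.33 against 0.01 for all genes. The exceptions below 0 were POLM, FANCF (-0.46, adjusted p = 0.1304) and FANCL (-0.02).

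RAD51AP1 (ENSG00000111247, chr12:4538798-4560048), which aids strand pairing, measured 42.2, 32.4, 34.2 and 23.0 CPM under vehicle and 46.5, 53.7, 68.1 and 53.4 CPM under decitabine. The groups did not overlap, and the lowest value was parental vehicle 4. The log2 difference was 0.75 (SE 0.19, adjusted p = 0.04109), a 1.68-fold rise. RBBP8 (ENSG00000101773, chr18:22798261-23026488), which starts resection with MRE11, measured 119, 109, 106 and 92.4 CPM against 141, 126, 184 and 138 CPM (log2 0.47, SE 0.12, adjusted p = 0.04121). The RBBP8 groups did not overlap either. Both genes have a named pseudogene copy (RAD51AP1P1 and RBBP8P1), so reads could have been shared with it.

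CHEK1 (ENSG00000149554, chr11:125625136-125676255), the kinase activated by ATR, measured 60.3, 55.2, 43.7 and 44.3 CPM under vehicle and 73.5, 77.7, 83.9 and 75.7 CPM under decitabine (log2 0.61, SE 0.15, adjusted p = 0.03529). All treated values exceeded all vehicle values. POLM (ENSG00000122678, chr7:44072247-44082540), a polymerase that fills gaps in end joining, measured 22.7, 22.8, 23.2 and 23.7 CPM under vehicle and 15, 14.2, 16.4 and 11.4 CPM under decitabine (log2 -0.69, SE 0.15, adjusted p = 0.01822). It fell to 0.618 of the vehicle level, and its vehicle values had a small spread (SD 0.454 CPM). BRCA2 (log2 0.73, SE 0.22, adjusted p = 0.06386), XRCC2 (0.78, adjusted p = 0.08626), FANCI (0.62, adjusted p = 0.06679) and USP1 (0.52, adjusted p = 0.05501) did not pass.

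These calls depended on single libraries. The number of genes called was 0 without parental vehicle 3, parental vehicle 4 or parental decitabine 3, 2 without parental vehicle 2 or parental decitabine 2, and 9 without parental vehicle 1, against 4 with all libraries. DESeq2 called 7 genes, and a fit of the 2 groups alone called 0.

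Since decitabine acts on CpG methylation, the sequence before a RefSeq start of each of the 4 genes called with it is shown, with each CpG in capitals. Methylation itself was not analysed here. The sequences are from RefSeq (GRCh38.p14), 5′ to 3′ on the gene's strand, and cover the 250 bases before the most upstream listed start less the bases that lie in an exon of that gene in GENCODE v29. They lie at chr12:4538640-4538797 (plus strand, 158 bases), chr18:22933078-22933314 (plus, 237 bases), chr11:125626035-125626223 (plus, 189 bases) and chr7:44082541-44082780 (minus, 240 bases). The stretches of RAD51AP1 and POLM lie just before the gene spans given above, whereas those of RBBP8 and CHEK1 lie inside them, outside annotated exons, because those spans begin at transcripts that start further upstream.
RAD51AP1: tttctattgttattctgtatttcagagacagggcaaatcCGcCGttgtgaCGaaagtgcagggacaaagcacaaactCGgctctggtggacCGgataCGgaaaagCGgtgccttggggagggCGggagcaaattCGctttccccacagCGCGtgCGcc
RBBP8: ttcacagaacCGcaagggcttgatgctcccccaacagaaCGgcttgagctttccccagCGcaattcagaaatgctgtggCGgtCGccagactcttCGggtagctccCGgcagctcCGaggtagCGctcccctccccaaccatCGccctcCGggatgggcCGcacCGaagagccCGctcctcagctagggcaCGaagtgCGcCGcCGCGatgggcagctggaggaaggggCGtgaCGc
CHEK1: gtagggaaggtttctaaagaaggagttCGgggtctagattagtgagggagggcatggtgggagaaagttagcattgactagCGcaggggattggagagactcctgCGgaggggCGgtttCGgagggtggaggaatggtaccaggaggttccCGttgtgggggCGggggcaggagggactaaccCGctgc
POLM: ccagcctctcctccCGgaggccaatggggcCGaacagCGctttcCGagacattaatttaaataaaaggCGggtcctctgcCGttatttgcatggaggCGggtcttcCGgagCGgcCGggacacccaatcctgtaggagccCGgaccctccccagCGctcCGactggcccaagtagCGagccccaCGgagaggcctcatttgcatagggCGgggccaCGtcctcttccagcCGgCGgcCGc
These stretches hold 12, 21, 8 and 20 CpG. The number in POLM, the gene that fell, lies within the range of the 3 genes that rose. Of the 39 genes, 34 matched the promoter table by symbol, with 44 windows of 250 bases. The median window held 20 CpG (8 to 33), against 11 over 35116 windows of all genes in the table. The letters CCAAT, on either strand, were in 47.7% of the genes' windows and 32.0% of all windows. The cell cycle element TTTGAA was in 13.6% and 13.3%, and an E2F-type string (TTTCGCGC, TTTGGCGC, TTTCCCGC or TTTGCCGC, either strand) in 4.55% and 2.79%. A match is a description of the letters and no evidence of binding.

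In resistant tumours, decitabine alone gave no call among the 38 genes, beside 3.33% of all tested genes (2.03% higher and 1.30% lower). At an unadjusted p under 0.05, 7 were higher and 0 lower, and DESeq2 called 0. The median log2 difference was 0.18, with 29 above 0. CHEK1 measured 52.2, 55.0, 44.3 and 61.0 CPM under vehicle and 52.4, 32.2 and 55.6 CPM under decitabine, so the groups overlapped (log2 -0.18, adjusted p = 0.5586). RAD51AP1 (0.09, adjusted p = 0.8505) and USP1 (0.09, adjusted p = 0.7971) were close to their vehicle level, while BRCA1 (0.58, adjusted p = 0.1601) and FANCM (0.73, adjusted p = 0.1057) had higher values that did not pass.

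The response of POLM to decitabine differed between the lines. In resistant tumours it measured 21.9, 22.5, 16.3 and 18.5 CPM under vehicle and 25.3, 27.4 and 24.5 CPM under decitabine, without overlap but not called (log2 0.38, adjusted p = 0.1637). The difference between the lines in the effect of decitabine alone, a comparison added after the values were seen, was a log2 of 1.07 (SE 0.21, adjusted p = 0.024). It was the 1 gene called among the 38, beside 0.119% of all genes. That call was lost without parental vehicle 3, parental vehicle 4, parental decitabine 2, resistant vehicle 4 or resistant decitabine 2 (adjusted p = 0.05822 to 0.09107), and without both libraries that stood apart (adjusted p = 0.1557). In the planned comparison, which averages the effect of decitabine with and without doxorubicin, the line difference for POLM was 0.78 (SE 0.15, adjusted p = 0.01391), and it held in every setting and with any 1 library left out. CHEK1, called with decitabine in the parental and not in the resistant line, did not pass for a line difference in that effect (log2 -0.79, adjusted p = 0.08605).

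RAD51C was the other of 2 genes called in the planned comparison of the lines' decitabine effects, beside 3.32% of all genes (2.07% higher and 1.25% lower in the resistant line). Its mean was 19.5 ± 5.02 CPM under vehicle and 29.4 ± 6.45 CPM under decitabine in parental tumours, and 33.5 ± 6.52 and 24.4 ± 10.1 CPM in resistant ones (SD, n = 3 or 4). Neither difference was called. The line difference was -0.85 (SE 0.24, adjusted p = 0.04901). It was lost with 20 of the 29 libraries left out in turn, and it was -0.63 (adjusted p = 0.1384) without both libraries that stood apart. Resistant decitabine 2, at 12.7 CPM against 31.0 and 29.4 CPM in its group, is 1 of these. Endothelial markers also differed between the lines in this comparison. Their sum (8 genes) was 14.8 ± 1.60 CPM under vehicle and 29.97 ± 3.18 CPM under decitabine in resistant tumours, and 22.0 ± 3.55 and 24.1 ± 0.708 CPM in parental ones (SD). Of the 4 that were tested, PECAM1 (log2 1.11, adjusted p = 0.03008) and ENG (0.89, adjusted p = 0.04331) were called for the line difference, and VWF was at 0 to 0.257 CPM over the 8 groups. Their part in the results for POLM and RAD51C was not tested.

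**Figure D3:**
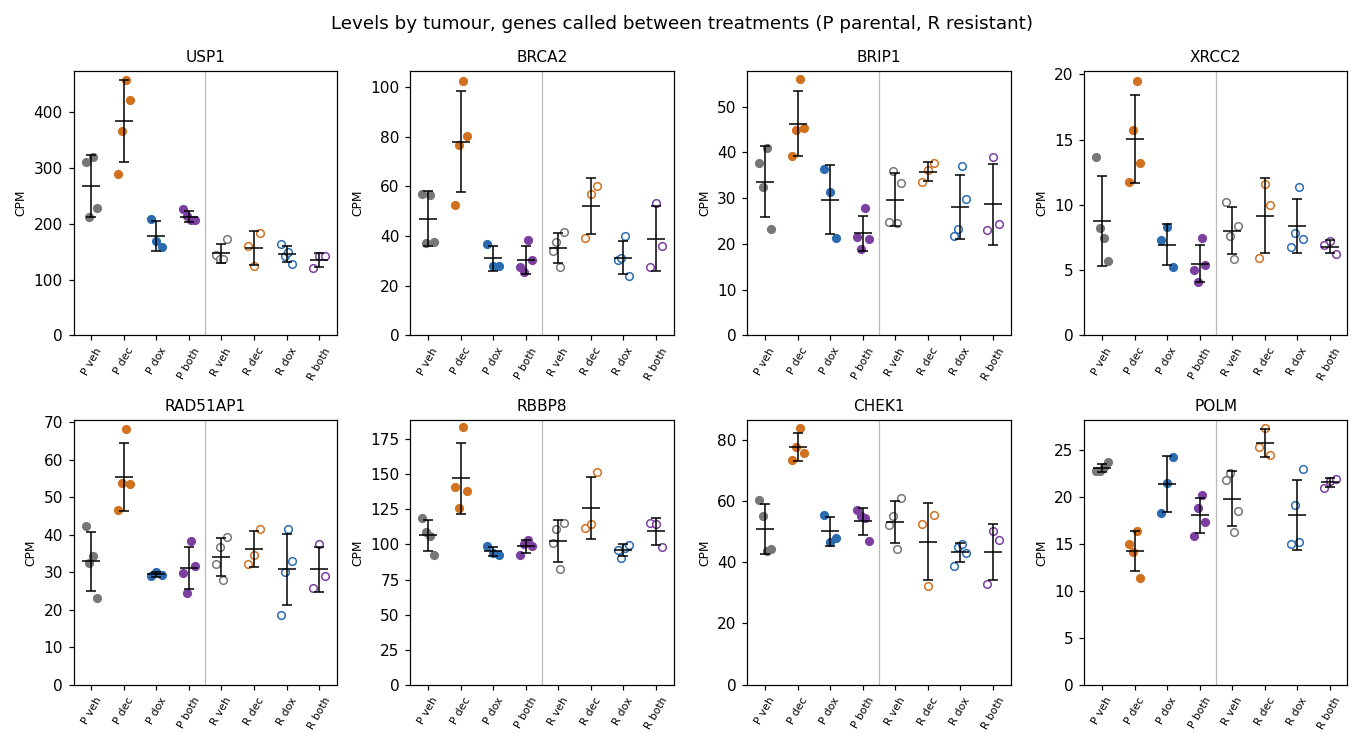
CPM per tumour (vertical axis) in the 8 groups (horizontal axis; abbreviations as for the lines) for 8 genes called between treatments, with filled circles for parental and open circles for resistant libraries and bars for mean and SD. In 7 of the 8 genes the parental decitabine group has the highest mean, and in POLM it has the lowest, 14.2 CPM.

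Doxorubicin alone gave no call among the 38 genes in either line. In parental tumours 0.23% of all tested genes were called (0.0371% higher and 0.193% lower), and 1 repair gene was higher and 5 were lower at an unadjusted p under 0.05. DESeq2 called 1 in this comparison. USP1 measured 208, 168 and 158 CPM against 310, 211, 320 and 228 CPM under vehicle, without overlap (log2 -0.59, adjusted p = 0.1083). BRCA2 measured 36.9, 28.1 and 27.9 CPM against 56.8, 37.4, 56.3 and 37.6 CPM (log2 -0.60, adjusted p = 0.3455). In resistant tumours 0% of all genes were called, and 1 repair gene was higher and 0 lower at an unadjusted p under 0.05. DESeq2 also called 0 of the repair genes there. The difference between the lines in the doxorubicin effect was called for 0 of the 38 genes and 0% of all genes, with 7 higher in the resistant line at an unadjusted p under 0.05 and 1 called by DESeq2.

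The combination against vehicle lowered 1 gene in parental tumours, FANCB, beside 1.03% of all genes (0.645% higher and 0.385% lower). FANCB (ENSG00000181544, chrX:14835961-14873069), a core subunit that holds FANCL, measured 6.03, 5.43, 9.003 and 3.19 CPM under vehicle and 1.49, 2.16, 2.83 and 1.46 CPM under the combination. The groups did not overlap (log2 -1.56, SE 0.36, adjusted p = 0.02821), but the counts were few, with 6 to 37 per library in the whole series, and the call was lost without parental vehicle 1 or 3 or parental combination 1, 2 or 4 (adjusted p = 0.06697 to 0.1243). A further 10 genes were lower at an unadjusted p under 0.05, among them PRKDC (-0.58, adjusted p = 0.08087) and FANCA (-0.68, adjusted p = 0.09283). In resistant tumours the combination gave 0 calls, beside 1.13% of all genes (0.911% higher and 0.215% lower), with 1 higher and 1 lower at an unadjusted p under 0.05 and 0 called by DESeq2.

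Of the 18 comparisons made, the one with the most repair genes called was between parental tumours given both drugs and those given decitabine alone. It was added after the values were seen, and it shares the decitabine libraries with the comparison to vehicle, so a high decitabine group enters both. Of the 38 genes 19 were called lower and 0 higher, beside 6.63% of all genes (2.73% higher and 3.90% lower). The median log2 difference was -0.42, against 0.02 for all genes, and 34 of 38 were below 0. In 17 of the 19 the groups did not overlap. These genes were already called between the same groups, so this describes them and adds no support. The share over all genes was not counted.

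Of the recombination genes, 7 of 10 tested were called, with a median log2 of -0.84. BRCA2 (ENSG00000139618, chr13:32315474-32400266), a mediator of strand exchange, measured 52.6, 76.5, 103 and 80.3 CPM under decitabine and 27.4, 25.3, 38.3 and 30.4 CPM under both drugs. Every value with both drugs was below the lowest with decitabine (log2 -1.36, SE 0.21, adjusted p = 0.001899), and the level was 0.389 of that with decitabine. XRCC2 (ENSG00000196584, chr7:152644779-152676165), which acts in strand exchange, measured 11.8, 15.7, 19.5 and 13.2 CPM against 5.03, 4.13, 7.47 and 5.42 CPM (log2 -1.45, SE 0.25, adjusted p = 0.002308). BRIP1 (ENSG00000136492, chr17:61681266-61863521), the helicase partner of BRCA1, measured 39.1, 44.9, 56.0 and 45.3 CPM against 21.4, 18.9, 27.8 and 21.0 CPM (log2 -1.05, SE 0.20, adjusted p = 0.003654). Neither XRCC2 nor BRIP1 overlapped between the groups. BRCA1 itself (-0.83, adjusted p = 0.02319), its partner BARD1 (-0.41, adjusted p = 0.03199), RAD51AP1 (-0.83, adjusted p = 0.009149) and the motor protein RAD54B (-0.99, adjusted p = 0.02196) were also lower. RAD51C (-0.18, adjusted p = 0.6847) and PALB2 (0.10, adjusted p = 0.8941), the bridge between BRCA1 and BRCA2, did not pass.

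Of the Fanconi genes, 3 of 9 core genes and 2 of 3 genes of the FANCD2 step were called. USP1 measured 289, 366, 456 and 422 CPM under decitabine and 225, 213, 206 and 206 CPM under both drugs, without overlap (log2 -0.85, SE 0.14, adjusted p = 0.002308). FANCB fell by 1.72 on the log2 scale (SE 0.35, adjusted p = 0.005241), FANCA by 0.75 (adjusted p = 0.02611), FANCM by 0.87 (adjusted p = 0.02281) and FANCI, the partner of FANCD2, by 0.65 (adjusted p = 0.02947). FANCA and FANCI overlap an antisense gene (ZNF276 and POLG) within the last 500 exonic bases, so their counts are uncertain. FANCD2 did not pass (-0.43, adjusted p = 0.1265). FANCF (0.41, adjusted p = 0.138), FANCC (0.22) and POLM (0.34, adjusted p = 0.1595) were, with PALB2, the genes with a difference above 0.

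In resection and helicase action 4 of 5 genes were called. RBBP8 measured 141, 126, 184 and 138 CPM against 92.2, 100.4, 103 and 99.2 CPM (log2 -0.58, SE 0.12, adjusted p = 0.005293). The groups did not overlap. The helicase BLM (-0.99, adjusted p = 0.009223), the nuclease EXO1 (-0.96, adjusted p = 0.03237) and NBN (-0.36, adjusted p = 0.04079) were lower, and RAD50 was not called (-0.08, adjusted p = 0.8671). Of the checkpoint kinases and TOPBP1, CHEK1 alone was called (-0.54, SE 0.15, adjusted p = 0.02397), and ATM (-0.35, adjusted p = 0.2011), ATR (-0.40, adjusted p = 0.101) and TOPBP1 (-0.37, adjusted p = 0.08981) had values in the same direction that did not pass.

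Among the end joining genes, PRKDC (ENSG00000253729, chromosome 8) measured 95.5, 102, 121 and 152 CPM under decitabine and 53.2, 55.0, 79.3 and 65.6 CPM under both drugs (log2 -0.90, SE 0.17, adjusted p = 0.003622). The groups did not overlap. POLQ, the polymerase of microhomology-mediated joining, was lower by a log2 of -1.61 (SE 0.47, adjusted p = 0.03527) on few counts, and XRCC5, XRCC6 and PARP1 were not called. The calls of BRCA2, BRIP1, FANCB, PRKDC, RBBP8, USP1 and XRCC2 held in every setting and with any 1 library left out. With 8 libraries left out in turn, the NBN and POLQ calls were lost with 6 of them. The calls of BARD1, EXO1, FANCA, FANCI and FANCM were lost with 4, BRCA1 with 3, CHEK1 and RAD54B with 2, BLM and RAD51AP1 with 1. NBN and BARD1 were also lost under 2 of 8 other settings. The count of 19 fell to 7 without parental decitabine 3, which had the highest value of its group for 21 of the 39 genes, to 11 without parental combination 1 and to 12 without parental combination 2.

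**Figure D4:**
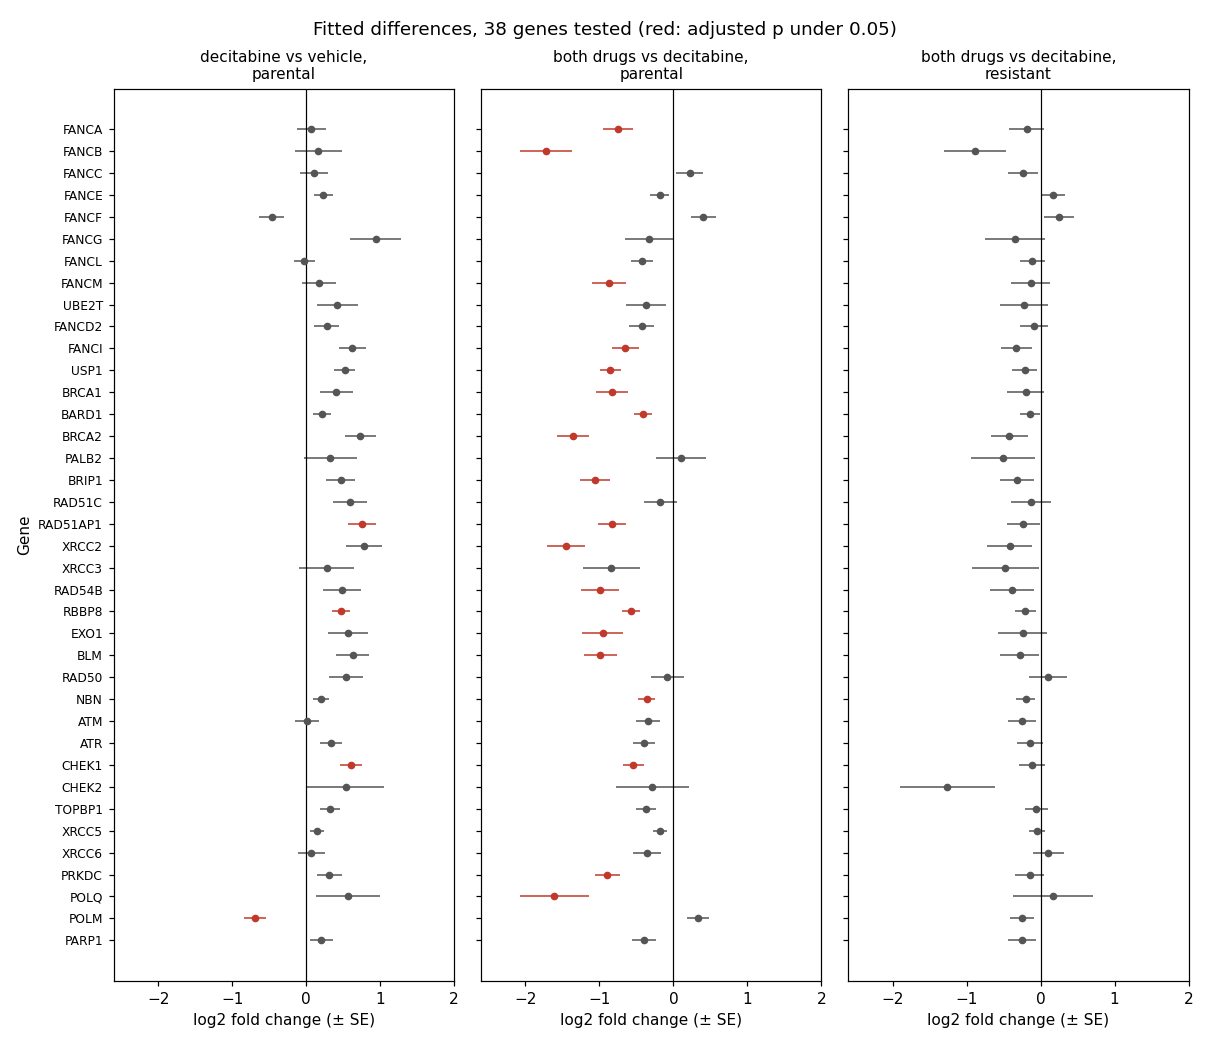
Fitted log2 differences with SE (horizontal axis) for the 38 tested genes (vertical axis) for decitabine against vehicle in parental tumours, and for both drugs against decitabine in parental and in resistant tumours, with calls in red. There are 4 calls in the left panel, 19 in the middle and 0 on the right, where 33 of 38 values are still below 0.

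In resistant tumours the same comparison gave 0 calls among the 38 genes and 0% among all genes, with 1 lower at an unadjusted p under 0.05 and 0 called by DESeq2. The median log2 was -0.21, with 33 of 38 below 0. BRCA2 measured 39.05, 57.1 and 60.04 CPM under decitabine and 27.5, 53.2 and 36.0 CPM under both drugs, which overlap (log2 -0.42). USP1 measured 161, 124 and 183 CPM against 120, 143 and 141 CPM, also with overlap (-0.21). The difference between the lines in this effect was called for 0 of the 38 genes and 0% of all genes (USP1 0.64, adjusted p = 0.7243), and DESeq2 called 0. A difference between the lines was therefore not detected for any of these genes.

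Whether the effect of doxorubicin in parental tumours depended on decitabine was tested as an interaction. None of the 38 genes was called, with edgeR or with DESeq2, beside 0.00741% of all genes. At an unadjusted p under 0.05, 14 were lower and 2 higher, which is a description only. BLM had the smallest adjusted p (log2 -1.12, adjusted p = 0.1801). Averaged over the lines and over tumours with and without decitabine, doxorubicin lowered 7 genes and raised 0, beside 2.37% of all genes (0.83% higher and 1.54% lower). They were BRCA2 (-0.64, SE 0.12, adjusted p = 0.01201), USP1 (-0.42, SE 0.08, adjusted p = 0.01201), FANCB (-0.87, SE 0.19, adjusted p = 0.01915), PRKDC (-0.40, SE 0.09, adjusted p = 0.02141), RBBP8 (-0.26, SE 0.06, adjusted p = 0.03221), XRCC2 (-0.53, SE 0.14, adjusted p = 0.04015) and BRIP1 (-0.41, SE 0.11, adjusted p = 0.04083). The average did not stand for each line and treatment. In resistant tumours, vehicle and doxorubicin alone gave means of 147 and 146 CPM for USP1. They were 8.01 and 8.36 CPM for XRCC2, and 3.23 and 3.32 CPM for FANCB. BRCA2, PRKDC, RBBP8 and BRIP1 had lower means with doxorubicin there. The calls of BRCA2 and USP1 held with any 1 library left out. The count of 7 fell to 2 without resistant combination 1, to 3 without parental doxorubicin 3 or resistant decitabine 3 and to 4 without parental vehicle 1 or resistant combination 3, and rose to 11 without resistant doxorubicin 3 or resistant combination 2.

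The average effect of decitabine, over the lines and over tumours with and without doxorubicin, was a rise of 2 genes, beside 6.8% of all genes (3.96% higher and 2.85% lower). RBBP8 rose by a log2 of 0.25 (SE 0.06, adjusted p = 0.0137) and BRCA2 by 0.39 (SE 0.11, adjusted p = 0.03611). For BRCA2 the average did not stand for parental tumours given doxorubicin, with means of 31.0 CPM without and 30.4 CPM with decitabine. In the other pairs of groups its mean was higher with decitabine. The RBBP8 call held with any 1 library left out, and the BRCA2 call was lost with 15 of 29.

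Other genes of these pathways were followed in lists compiled with earlier results of these data known. Of 47 further Fanconi and recombination genes tested, 6 fell and 0 rose with both drugs against decitabine in parental tumours, beside 3.90% and 2.73% of all genes, among them CENPS (log2 fold change -0.80, adjusted p = 0.004386), which works with FANCM, and the nuclease GEN1 (-0.74, adjusted p = 0.03192). Of 22 further checkpoint and break-signalling genes, the CHEK1 activator CLSPN rose with decitabine alone in parental tumours (0.96, adjusted p = 0.0382), as did the phosphatase CDC25A (0.94, adjusted p = 0.03529), while the kinase WEE1 fell (-0.63, adjusted p = 0.04947). CLSPN (-1.58, adjusted p = 0.001605) and CDC25A (-1.08, adjusted p = 0.005404) were lower with both drugs than with decitabine. In resistant tumours decitabine raised TOP3A (0.62, adjusted p = 0.04011), FAAP24 (0.71, adjusted p = 0.04682) and RAD1 (0.46, adjusted p = 0.03245) of these 2 lists, and lowered 0, beside 2.03% and 1.30% of all genes. Of 11 further end joining genes edgeR called 0 in each of these 3 comparisons, and at an unadjusted p under 0.05 at most 1 was higher and 2 were lower.

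Between the lines under vehicle, 4 of the 47 genes were higher and 5 lower in resistant tumours, and 0 of the 22 were higher and 6 lower, beside 8.66% of all genes higher and 11.5% lower. The share among the 47 was near that of all genes. The nuclease subunit ERCC1 was higher (0.75, adjusted p = 0.0001022), and RPA2, which coats single-stranded DNA, was lower (-0.94, adjusted p = 0.0006163). The ubiquitin ligase RNF8, which marks chromatin at breaks, was lower by a log2 of -1.17 (SE 0.10, adjusted p = 3.695e-09). Of the end joining genes, PAXX was higher (0.55, adjusted p = 0.009604) and the ligase LIG4 lower (-0.84, adjusted p = 0.04156).

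Genes of cell division moved in the same comparisons. With decitabine in parental tumours all 30 mitosis genes had a difference above 0 (median log2 0.57), of which 5 were called, and 26 of 28 S phase genes did (median 0.39), of which 1 was called. Among all tested genes 0.793% were called higher there. With both drugs against decitabine 21 of the 30 mitosis genes and 13 of the 28 S phase genes were called lower, beside 3.90% of all genes. Their medians were -0.73 and -0.66, against -0.42 for the repair genes. Summed over the list, mitosis genes were at 3352 ± 718, 4895 ± 711, 3348 ± 480 and 2840 ± 396 CPM in parental tumours with vehicle, decitabine, doxorubicin and both drugs, and the repair genes at 1888 ± 217, 2357 ± 229, 1715 ± 147 and 1647 ± 68.8 CPM (SD). The part of proliferation in the changes of the repair genes was not tested. POLM, which fell with decitabine, did not share this direction.

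MDA-MB-231 carries mutant p53. Of 27 p53 target genes tested, 1 rose with decitabine in parental tumours (FAS, 1.67, adjusted p = 0.04508), beside 0.793% of all genes, and 1 with both drugs against decitabine (PLK3, 0.66, adjusted p = 0.0396), beside 2.73%. Summed over 28 targets, the level was 1387 ± 125 CPM under vehicle, 1537 ± 55.0 CPM under decitabine and 1668 ± 17.9 CPM under both drugs in parental tumours (SD). CDKN1A, the best-known target, was at 55.5, 74.5, 92.4 and 67.3 CPM in the parental and 74.7, 89.9, 74.4 and 89.9 CPM in the resistant groups (vehicle, decitabine, doxorubicin, both), and was not called with both drugs against decitabine (-0.15). Of the drug targets, DNMT1, a methyltransferase trapped by decitabine, was at 229, 333, 256 and 212 CPM in parental and 159, 136, 148 and 121 CPM in resistant groups, and TOP2A, the target of doxorubicin, at 850, 1226, 899 and 758 CPM and 913, 1086, 878 and 841 CPM. Both were lower with both drugs than with decitabine in parental tumours (DNMT1 -0.65, adjusted p = 0.008268; TOP2A -0.69, adjusted p = 0.006682). The de novo methyltransferases DNMT3A (-0.32, adjusted p = 0.2785) and DNMT3B (-0.52, adjusted p = 0.3665) were not called there.

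**Figure D5:**
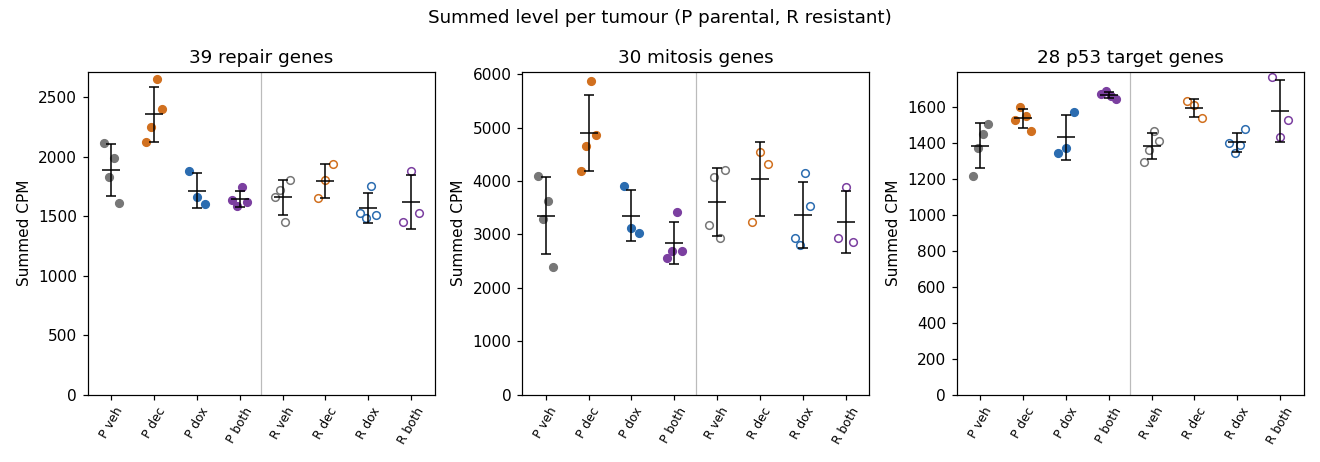
Summed CPM per tumour (vertical axis, from 0) of the 39 repair genes, 30 mitosis genes and 28 p53 targets in the 8 groups (horizontal axis), with filled circles for parental and open circles for resistant libraries and bars for mean and SD. Repair and mitosis genes are highest in parental tumours with decitabine (means of 2357 and 4895 CPM), and p53 targets in those with both drugs (1668 CPM).

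Markers of stromal cells also varied. The sum of 8 fibroblast markers was 1068 ± 193, 1267 ± 624, 850 ± 365 and 595 ± 172 CPM in the parental groups (vehicle, decitabine, doxorubicin, both), and reached 2064 CPM in parental decitabine 3. All 8 markers had counts in every group. The 6 that were tested had a median log2 of 0.41 with decitabine and of -0.80 with both drugs against decitabine in parental tumours. edgeR called 0 of them in either comparison, and 1 was higher with decitabine at an unadjusted p under 0.05. Endothelial markers summed to 22.0 to 29.6 CPM over the parental group means and 14.8 to 33.8 CPM over the resistant ones, and myeloid markers (8 genes) to 26.0 to 40.4 CPM over all 8. Their part in the changes of the repair genes was not tested.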

How the data were processed

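RNA of 29 xenograft tumours was read as 3′ tags (QuantSeq forward kit after poly(A) selection, per the labels). The values deposited by the authors are raw counts per gene, whole numbers without normalisation. The submitters' processing notes list the genome build GRCh38.p10 and the tools STAR 2.7.3a, featureCounts, cutadapt and DESeq2. The annotation, the strand setting and the treatment of mouse reads are not given in the sources used here, so genes with antisense partners (4 members) or pseudogene copies (6) are uncertain.

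Genes were kept by filterByExpr (minimum count 10, total 15), which left 13495 of 58302, scaled by TMM and fitted together over 8 group means with edgeR 4.0.16 (R 4.3.3; quasi-likelihood, robust), with Benjamini-Hochberg adjustment over all tested genes. Libraries within a group are separate samples per the labels, but each mouse had an injection on either side and no library is tied to an animal, so p-values measure the spread between samples. Replicates differed by more than sampling noise (chi-square at least 3.65 times its degrees of freedom). Alternatives were DESeq2 1.42.0, other scalings and filters, a replicate block, fewer groups or libraries. Members and lists were chosen with earlier results of these data known, and 6 of the 18 comparisons were added after values were seen. By rule, values are given for members called in a comparison, taking up to 10 with the smallest adjusted p, and up to 4 called genes of each other list. Counts were simulated for both drugs against decitabine in parental tumours (13360 genes), with 100 genes changed by a log2 of 0.6 and 100 by 1. Of these 24% and 80% were called, and 0.0456% of unchanged genes. No other gene was changed, whereas 6.63% of all genes were called in the data. Counts were drawn independently for each gene, so shifts shared by the genes of a library were not simulated. These shares hold for the simulated setting and are not the rates in these libraries. The changed genes were drawn above a minimum mean count. The shares therefore do not cover genes with few counts, such as FANCB, POLQ, XRCC3 and CHEK2.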

Additional observations from a re-analysis of the deposited data

Results flagged for a closer look

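POLQ in resistant doxorubicin 3 was at 7.15 CPM, far from the other 3 libraries of its group, which lay between 1.80 and 2.40 CPM. It was the 1 such value among 135 groups of 4 libraries examined, over 27 genes called in at least 1 comparison, where chance gives about 5% of groups.

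The effect of decitabine differed between the lines for POLM, by a log2 of 0.78 averaged over tumours with and without doxorubicin and by 1.07 for decitabine alone, and for RAD51C, by -0.85 on average. All 3 were tested as a difference between the lines.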

How the results depend on the processing

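None of the 54 results for single genes changed direction in 1310 repeats under other settings, and 243 repeats no longer passed. Counts of genes called moved by over 1.5 times in 88 of 405 repeats. With DESeq2 the counts were 7 for decitabine in parental tumours, 1 for doxorubicin in parental tumours, 1 for the line difference in the doxorubicin effect and 2 for that in the effect of decitabine alone. Without a filter on low counts they were 11 and 3 for decitabine in parental and resistant tumours, 1 for doxorubicin and 6 for the combination in parental tumours, 4, 3, 4 and 1 for the line differences in the effects of decitabine, doxorubicin, decitabine alone and doxorubicin added to decitabine, and 3 for the parental interaction. A filter of 1 CPM in 3 libraries left 1 for the line difference in the decitabine effect. Without parental vehicle 3 and resistant decitabine 2, the combination in parental tumours had 0, the line difference in the decitabine effect 1 and that for decitabine alone 0. A fit of the 2 groups alone gave 0 for decitabine and 0 for the combination in parental tumours. The causes were not tested.

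With 1 library left out in turn, the counts ranged from 0 to 9 for decitabine in parental tumours, 0 to 1 for doxorubicin (1 without parental vehicle 2) and for the combination in parental tumours, 3 to 6 for the lines under vehicle, 8 to 12 for the average line difference, 1 to 3 for the average decitabine effect and for its line difference, 2 to 11 for the average doxorubicin effect, 0 to 1 for its line difference (1 without parental decitabine 1), 0 to 2 for the line difference with decitabine alone (2 without parental vehicle 1 or resistant decitabine 3) and 7 to 19 for doxorubicin added to decitabine in parental tumours. They stayed at 0 in the other 7 comparisons.

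Replicate numbers gave little sign of pairing the libraries. Same-numbered libraries of different groups had a median correlation of 0.0175 (-0.411 to 0.434, 94 pairs), and 32 pairs were over 0.1. For differently numbered libraries the median was 0.000788 (-0.467 to 0.585, 273 pairs), and 79 pairs were over 0.1. A median cannot exclude that single pairs shared an animal or a batch. With the replicate number as a block, the count was 2 for decitabine in parental tumours, 1 for the average decitabine effect and 19 for doxorubicin added to decitabine in parental tumours.

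Depth limits the genes with few counts, such as FANCB, POLQ, XRCC3 and CHEK2.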
